A study of Mus musculus with 6 samples.

Results

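Phase II enzymes join a small polar group to drugs, hormones and products of oxidation so that the conjugate can leave the cell and be excreted. The transferases described here are the genes of the glutathione transferases (Gst classes alpha, kappa, mu, omega, pi, theta and zeta, and the membrane-bound Mgst enzymes), the UDP-glucuronosyltransferases (Ugt) and the cytosolic sulfotransferases (Sult). The rule took them by name alone, as every gene of a non-control probe on the array whose symbol carries any of these stems. It uses no measured value, but it was set with earlier results of these data known. The rule found 57 genes, measured by 84 probes, among 37325 gene names and 56605 probes. They were 23 glutathione, 15 glucuronide and 19 sulfate transferases.

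RNA came from the renal cortex of male C57BL/6 mice, and all mice were diabetic. From an age of 8 weeks they ate a high-fat diet, in which fat gave 60% of the calories, and after 4 weeks of it they received streptozotocin, which kills pancreatic beta cells, at 60 mg/kg on 3 days. They were killed 26 weeks after the toxin. One group of 3 samples came from C3aR-/- mice, which lack the receptor for the complement fragment C3a, and the other group of 3 came from wild-type (WT) mice. Which part of the gene was deleted is not stated in the labels. No sample came from a non-diabetic mouse, so the comparison is between genotypes within diabetes. Each sample was hybridised to a 1-colour Agilent array.

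Glutathione transferases attach the tripeptide glutathione to electrophiles, and the product is trimmed at the brush border of the proximal tubule and excreted as a mercapturate. UDP-glucuronosyltransferases sit in the endoplasmic reticulum and transfer glucuronic acid to bilirubin, steroids and drugs, while sulfotransferases move sulfate from the donor PAPS to phenols, catecholamines, steroids and bile acids. In the kidney many of these enzymes are found in the proximal tubule, the segment that also takes up and secretes organic anions.

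Each level is the log2 processed signal of a probe after subtraction of its array's 75th percentile. Each difference is the C3aR-/- mean minus the WT mean on that scale, with limma's standard error (n = 3 arrays in each group). Values of single arrays are given for replicates 1, 2 and 3 in that order. Nothing in the labels says that replicates were separate animals, so limma's p-values reflect only how these samples spread. A gene was tested where a probe was well above background on at least 3 of the 6 arrays, and 48 of the 57 genes passed. The probe used was above background on all 6 arrays for each of these except Sult2a6, where it was above it on 5. In bulk cortex, fewer cells of a type and less RNA per cell cannot be told apart.

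The arrays were alike in the share of probes well above background, at 58.6% to 63.0%, and correlated with each other at 0.981 to 0.995. The first principal component held 43.1% of the variance, and its ends were C3aR-/- replicate 2 and WT replicate 1. C3ar1, the targeted gene, read -4.10, -4.95 and -4.69 in C3aR-/- arrays, against -2.96, -3.86 and -3.62 in WT arrays. The groups did not overlap, and the difference was -1.10 ± 0.30 (limma, unadjusted p = 0.0099, adjusted p = 0.931, n = 3 each). The C3ar1 probe was well above background on 2 C3aR-/- arrays and 3 WT arrays. All 12 proximal tubule markers, such as Slc34a1 and Lrp2, passed the background filter.

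No transferase passed the threshold. At an adjusted p under 0.05 limma called 0 of the 48 tested genes, with 0% called among all 22741 genes, and the lowest adjusted p among the 48 was 0.931. At an unadjusted p under 0.05 there were also 0 transferases, against 4.89% of all genes (2.21% higher and 2.68% lower), and the lowest unadjusted p was 0.0970, for Ugt2a1 (limma, n = 3 each). The 2 groups did not overlap for 1 transferase, Gstt1, or 2.08% of them, against 9.85% of all genes (5.66% higher and 4.19% lower). By sign alone 34 read higher and 14 lower in C3aR-/- cortex, a share of 70.8% higher, against 56.6% of all genes. The median difference was 0.12 over the transferases, against 0.03 over all genes.

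The size of change that these data leave room for was limited by 3 arrays per group. None of the 48 estimates exceeded 1.5-fold either way. The 95% interval lay within 2-fold in both directions for 39 genes. It held a 2-fold higher level for 6 genes, which were Gstz1, Ugt2b35, Ugt2b38, Ugt3a1, Ugt3a2 and Sult2a2, and a 2-fold lower level for 3, which were Mgst2, Sult2b1 and Sult4a1. The outermost bounds were 2.56-fold, for Ugt3a1, and 0.388 of the WT level, for Sult4a1.

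**Figure D1:**
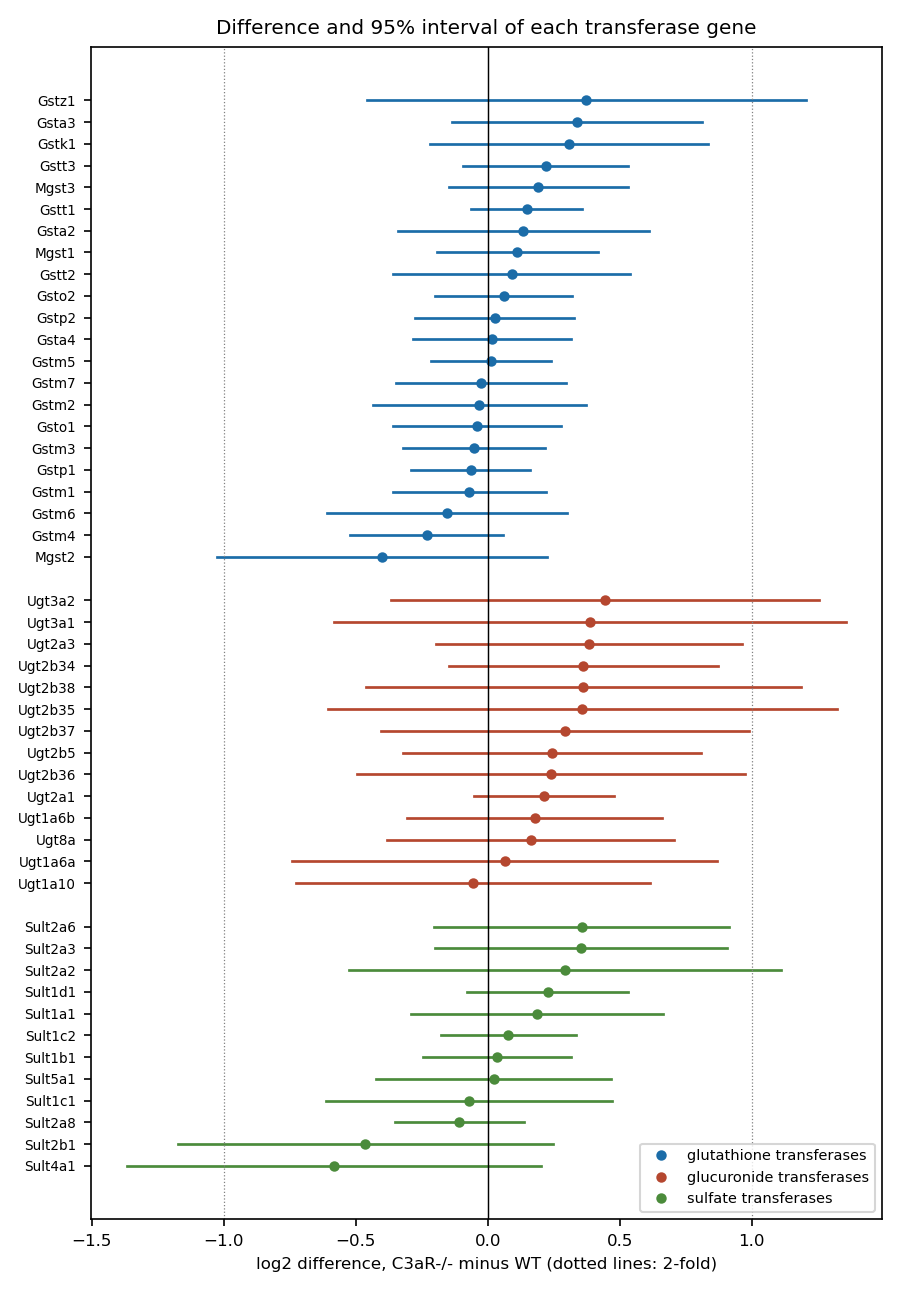
Difference of each tested transferase gene (points, log2, C3aR-/- minus WT) with its 95% limma interval (lines), grouped by enzyme class and sorted by size. All 48 intervals include 0, and 13 of the 14 glucuronide transferases lie to the right of it.

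The 3 classes differed in how far their arrays spread within a group. The median within-group SD was 0.15 for the 22 tested glutathione transferases, 0.42 for the 14 glucuronide transferases and 0.30 for the 12 sulfate transferases, against 0.19 over all genes. The same order held for the median standard error of the difference, at 0.13, 0.28 and 0.21. Single genes departed from this order, such as Gstz1, with a standard error of 0.34, and Ugt2a1, with 0.11.

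Among the glutathione transferases, 13 read higher and 9 lower, with a median difference of 0.02, and the range ran from -0.40 to 0.37. Class by class, all 3 alpha genes and all 3 tested theta genes read higher, and 6 of the 7 mu genes read lower, by small amounts. These counts rest on the probe used for each gene. Second probes of Gstt2 and Gstm5 gave the opposite sign, at -0.01 and -0.07. Gsta3, an alpha enzyme that in mouse conjugates the epoxide of aflatoxin, read 5.76, 5.76 and 5.37 in C3aR-/- arrays, against 4.93, 5.41 and 5.53 in WT arrays, a difference of 0.34 ± 0.20 (limma, unadjusted p = 0.133). The groups overlapped through C3aR-/- replicate 3, and its 3 probes gave differences of 0.34 to 0.70. The difference was 0.16 without WT replicate 1. Gsta2, of the same class, read 6.81, 7.12 and 6.59 in C3aR-/- arrays, against 6.38, 6.82 and 6.92 in WT arrays. Its difference was 0.14 ± 0.20, and it turned to -0.03 without WT replicate 1, the lowest array. Gsta4, which clears the lipid peroxidation product hydroxynonenal, differed by 0.02 ± 0.12.

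Gstt1, a theta enzyme that acts on halogenated alkanes, was the only transferase whose groups did not overlap. Its probe lies at chr10:75246560-75246619 (mm9, minus strand). It read 5.79, 5.76 and 5.76 in C3aR-/- arrays, against 5.58, 5.66 and 5.63 in WT arrays, a difference of 0.15 ± 0.09 (limma, unadjusted p = 0.138). The separation was narrow, with within-group SDs of 0.02 in C3aR-/- and 0.04 in WT. The other theta genes, Gstt2 and Gstt3, differed by 0.09 ± 0.19 and 0.22 ± 0.13. Gstt4 was well above background on 0 C3aR-/- arrays and 2 WT arrays and was not tested.

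Gstz1, the zeta enzyme that isomerises maleylacetoacetate in tyrosine breakdown, had the largest positive difference of the class. It read 5.33, 5.54 and 4.98 in C3aR-/- arrays, against 4.14, 5.38 and 5.20 in WT arrays, a difference of 0.37 ± 0.34. With any other single array left out the difference was 0.24 to 0.61, and without WT replicate 1, its lowest array, it was -0.01. Gstk1, the kappa enzyme of mitochondria and peroxisomes, was lowest on the same array and differed by 0.31 ± 0.22. Mgst2, a membrane enzyme that can make leukotriene C4, read -3.35, -3.90 and -3.12 in C3aR-/- arrays, against -2.87, -3.47 and -2.84 in WT arrays. Its difference of -0.40 ± 0.26 was the largest negative one of the class, the groups overlapped, and it was -0.18 without C3aR-/- replicate 2.

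The mu genes lay close together. Gstm4 read 0.78, 0.67 and 0.93 in C3aR-/- arrays, against 1.18, 0.92 and 0.98 in WT arrays, a difference of -0.23 ± 0.12 (limma, unadjusted p = 0.100). C3aR-/- replicate 3 lay just inside the WT range. Gstm1, Gstm2, Gstm3, Gstm6 and Gstm7 had differences from -0.15 to -0.03, and Gstm5 differed by 0.01 ± 0.09. The probe used for Gstm1 maps to chr5:117082490-117082549 in the mm9 grid although RefSeq places the gene on chromosome 3, and its other probe, on chromosome 3, gave -0.12. Mu genes are related in sequence, and what each probe caught from related transcripts was not measured.

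The remaining members of the class differed little. Gsto1 and Gsto2, omega enzymes that reduce dehydroascorbate, differed by -0.04 ± 0.13 and 0.06 ± 0.11. The pi enzymes Gstp1 and Gstp2 differed by -0.06 ± 0.09 and 0.03 ± 0.13. Mgst1, the microsomal enzyme that reduces lipid peroxides, differed by 0.11 ± 0.13, and Mgst3 by 0.19 ± 0.14. A second, dimmer probe of Mgst3 differed by 0.48 ± 0.14 with no overlap (limma over all probes, unadjusted p = 0.0125, adjusted p = 0.947). That probe is singled out after its values were seen.

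**Figure D2:**
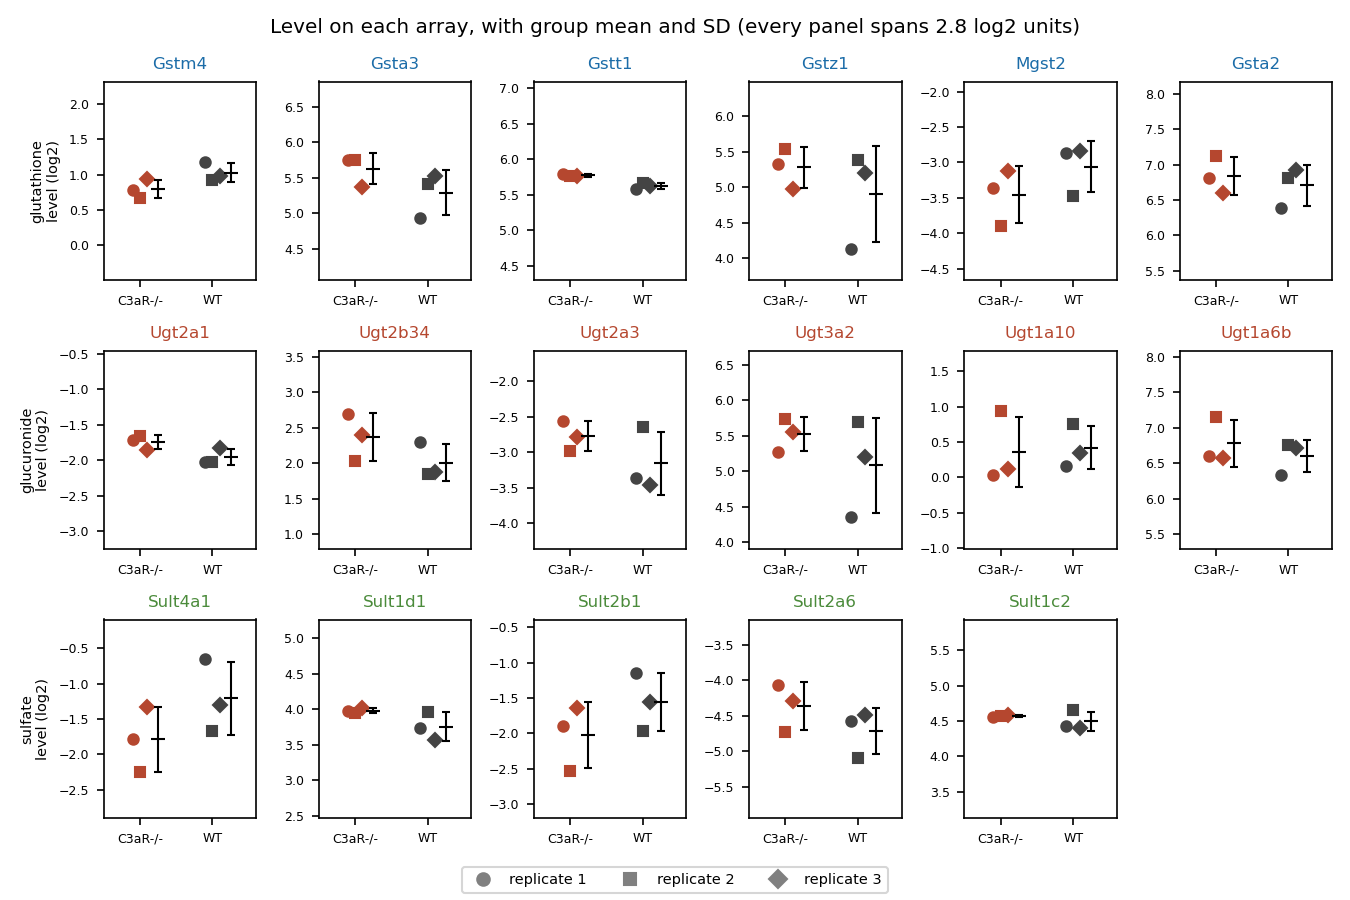
Levels (log2, relative to the array's 75th percentile) of the named transferases on the 3 C3aR-/- arrays and the 3 WT arrays, with group mean and SD beside the points; marker shape gives the replicate number and every panel spans the same range. Groups are separate only for Gstt1, and WT replicate 1 lies far below the others for Gstz1 and Ugt3a2.

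The glucuronide transferases were the class with the most uniform sign. Of 14 tested, 13 read higher and 1 lower in C3aR-/- cortex, with a median difference of 0.27 and a range of -0.06 to 0.45. All 8 genes of family 2 read higher, with a median of 0.33. The median moved with single arrays, at 0.09 when C3aR-/- replicate 2 was left out, 0.06 when WT replicate 1 was, and 0.49 when WT replicate 2 was. Without the arrays at both ends of the first component 4 of the 14 read higher and the median was -0.14. Within the row of the slide that held 2 arrays of each group the class median was 0.18, and within the row that held C3aR-/- replicate 3 and WT replicate 1 it was 0.41. Given per array, the mean of the class, with each gene centred on its own mean, was 0.02, 0.41 and -0.05 in C3aR-/- arrays, against -0.48, 0.25 and -0.16 in WT arrays. C3aR-/- replicate 2 and WT replicate 2 were therefore the high arrays, WT replicate 1 the low one, and the groups overlapped.

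Several marker lists ran unevenly over the same arrays. The mean of the 12 proximal tubule markers was 0.13, 0.62 and -0.08 in C3aR-/- arrays, against -0.79, 0.24 and -0.11 in WT arrays. All 12 read higher, with a median difference of 0.36 and 0 at an unadjusted p under 0.05 (limma). Slc27a2, which imports fatty acids, differed by 0.23 ± 0.12 and Slc5a12, a lactate carrier, by 0.70 ± 0.39. Red blood cell markers took a like course, at 0.07, 0.88 and -0.01 in C3aR-/- arrays, against -1.13, 0.22 and -0.03 in WT arrays. All 3 tested of the 4 read higher, with a median of 0.63 and 0 at that p, and Alas2, of heme synthesis in red cells, differed by 0.68 ± 0.40 and Hba-a1, a globin, by 0.57 ± 0.39. Of the 7 markers of the straight proximal segment S3, 3 read higher and 4 lower, with a median of -0.01 and 0 at that p. The 2 of smallest p, Slc7a13 at 0.51 ± 0.55 and Acy3 at 0.28 ± 0.31, were both among the higher.

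The lists with lower readings were those of injury and of immune cells. All 7 markers of injured tubule read lower, with a median of -0.70, 3 at an unadjusted p under 0.05 (limma), and a mean of -0.38, -0.61 and -0.02 in C3aR-/- arrays, against 0.93, -0.06 and 0.14 in WT arrays. Sox9 differed by -0.60 ± 0.10 and Krt19 by -0.80 ± 0.27. Over all genes 4.89% were at that p, 2.21% higher and 2.68% lower. All 7 T cell markers read lower, with a median of -1.23, 7 at that p, and a mean of -0.38, -1.06 and -0.31 in C3aR-/- arrays, against 0.64, 0.21 and 0.89 in WT arrays. Cd6 differed by -1.22 ± 0.21 and Cd2 by -1.46 ± 0.32. All 7 macrophage markers read lower, with a median of -0.60 and 3 at that p, among them Lyz2 at -0.92 ± 0.21 and C1qa at -0.69 ± 0.21. All 3 tested B cell markers read lower, with a median of -0.66 and 1 at that p, with Cd79b at -0.66 ± 0.15. The other 9 lists, of distal tubule, collecting duct, glomerulus, vessel, stroma, fat and adrenal cells, had medians of -0.04 to 0.30. Of these only the intercalated cell list had a gene at that p, 1 of 4 tested, which read higher. None of these genes passed adjustment, and the part of these cell types in the transferase values was not tested.

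**Figure D3:**
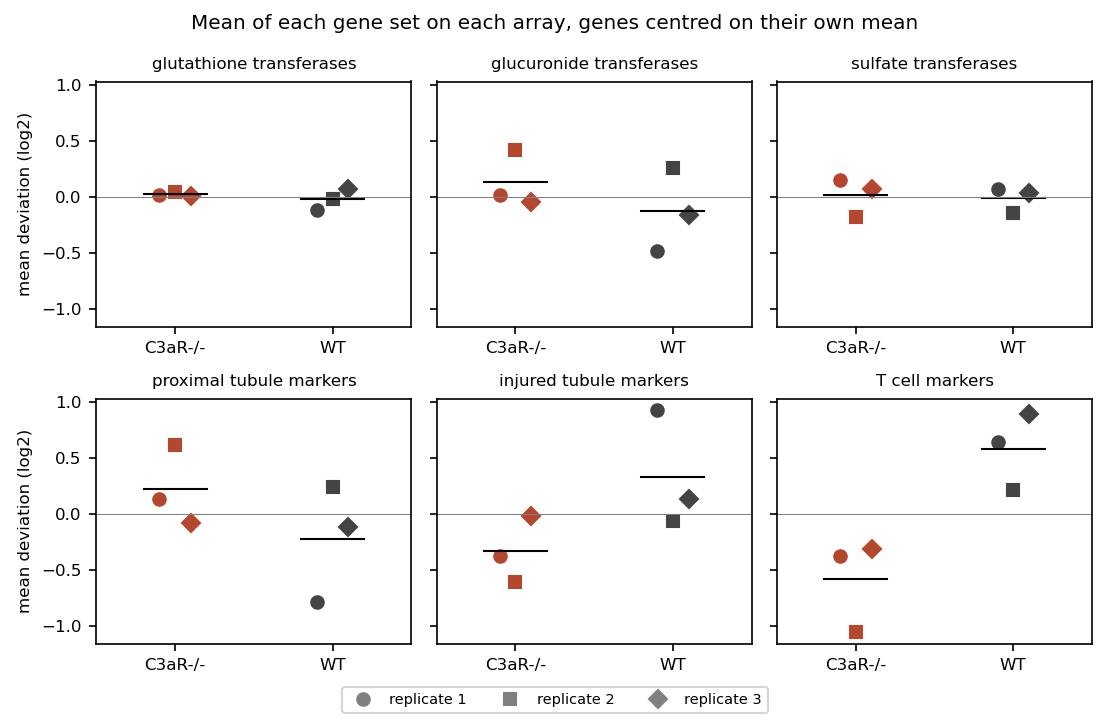
Mean deviation (log2, each gene centred on its own mean over the 6 arrays) of the 3 enzyme classes and of markers of proximal tubule, injured tubule and T cells, by array; lines are group means. The glucuronide transferases and the proximal tubule markers are high on replicate 2 of both groups and lowest on WT replicate 1, while the glutathione transferases stay between -0.12 and 0.07.

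Single genes were spread over the arrays in the same uneven way. WT replicate 1 was the lowest array for 23 of the 48 transferases, or 47.9%, against 29.7% of all genes, and these were 11 glutathione, 10 glucuronide and 2 sulfate transferases. C3aR-/- replicate 2 was the highest array for 19, or 39.6%, against 25.8% of all genes, and 11 of those were glucuronide transferases.

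**Figure D4:**
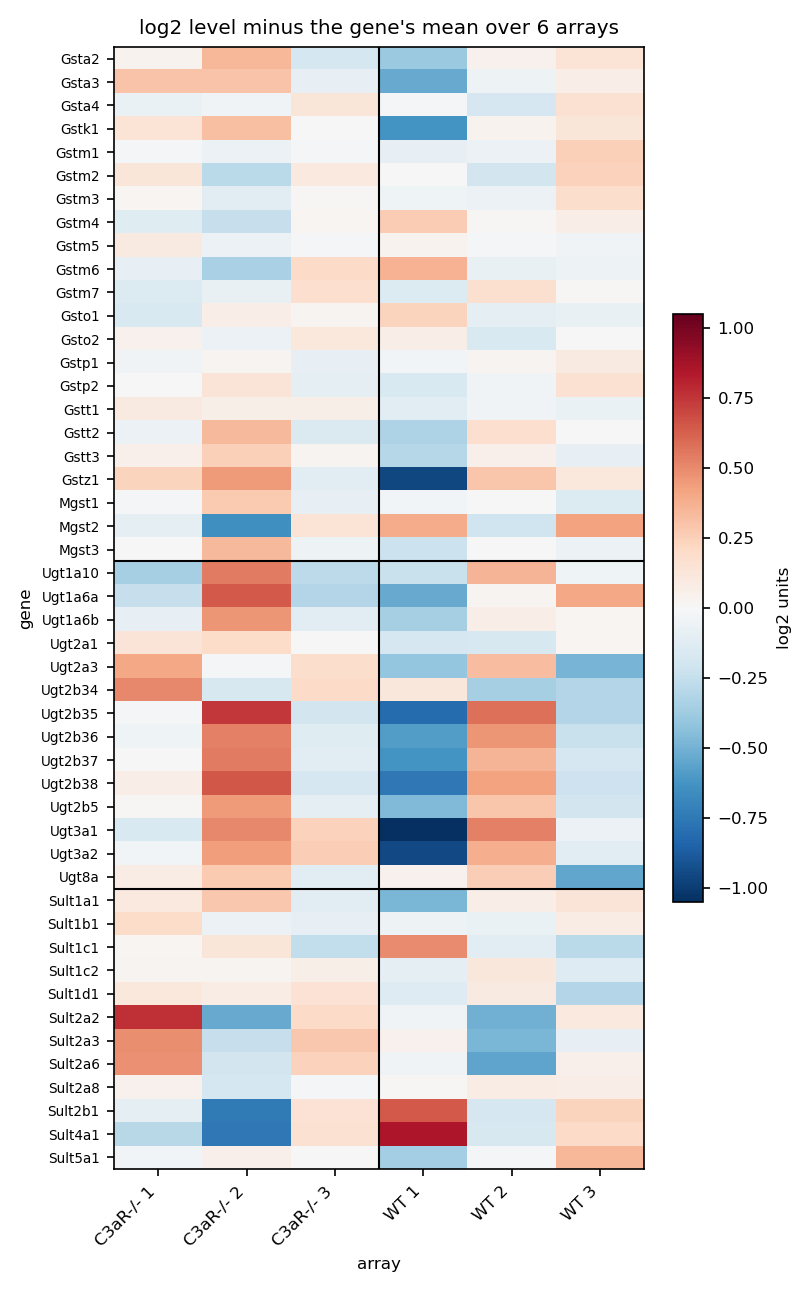
Level of each tested transferase on each array minus its mean over the 6 arrays (log2; red above, blue below), with C3aR-/- arrays on the left and WT arrays on the right; horizontal lines divide the glutathione, glucuronide and sulfate transferases. The block from Ugt2b35 to Ugt2b5 is red on replicate 2 of both groups and blue on WT replicate 1, and Ugt2b34 just above it is not.

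Family 2B enzymes conjugate steroids and bile acids, and their genes lie in a cluster on chromosome 5. Ugt2b38 read 5.91, 6.49 and 5.66 in C3aR-/- arrays, against 5.09, 6.26 and 5.62 in WT arrays, a difference of 0.36 ± 0.34. Ugt2b5 read 3.05, 3.49 and 2.94 in C3aR-/- arrays, against 2.58, 3.33 and 2.85 in WT arrays, a difference of 0.24 ± 0.23. Ugt2b35, Ugt2b36 and Ugt2b37 differed by 0.36 ± 0.40, 0.24 ± 0.31 and 0.29 ± 0.29. In each of these 5 genes the arrays fell in one order, highest on C3aR-/- replicate 2, then WT replicate 2, C3aR-/- replicates 1 and 3, WT replicate 3, and lowest on WT replicate 1. Of all 22741 genes, 274 had that order, or 1.2%, and Gstt3 was the only other transferase among them. Of the 12 proximal tubule markers 3 had it too (Slc22a8, Lrp2 and Slc4a4), as did Alas2, Cldn10, Glyat, Bpnt1 and Slc26a1 among the other listed genes. The order was picked out after these values were seen.

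Ugt2b34, of the same cluster, went another way. It read 2.70, 2.02 and 2.39 in C3aR-/- arrays, against 2.31, 1.84 and 1.88 in WT arrays, so that both replicates numbered 2 were low. Its difference was 0.36 ± 0.21 (limma, unadjusted p = 0.135), and the groups overlapped through C3aR-/- replicate 2 and WT replicate 1. Ugt2b1 was not above background on any array.

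The sequences just upstream of the start sites are shown because these 5 genes share letters there that Ugt2b34 lacks. Genes of other kinds had the same array order, and no relation between the letters and the order was tested. Each is the 120 bases before the RefSeq start on GRCm38.p6, written 5′ to 3′ on the gene's strand. In Ugt2b5 (chr5:87140341-87140460, minus strand), Ugt2b37 (chr5:87254789-87254908, minus strand) and Ugt2b38 (chr5:87424204-87424323, minus strand), capitals mark a run of 62 bases that is identical in these 3 genes and stands in no other of 32851 promoter windows. In Ugt2b36 (chr5:87092556-87092675, minus strand) and Ugt2b35 (chr5:87000740-87000859, plus strand), capitals mark the motif GTTATANTTTAAC, which also stands inside the 62-base run.
Ugt2b5: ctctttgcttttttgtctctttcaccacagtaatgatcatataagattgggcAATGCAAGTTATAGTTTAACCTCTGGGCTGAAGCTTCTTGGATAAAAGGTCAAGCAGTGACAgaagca
Ugt2b37: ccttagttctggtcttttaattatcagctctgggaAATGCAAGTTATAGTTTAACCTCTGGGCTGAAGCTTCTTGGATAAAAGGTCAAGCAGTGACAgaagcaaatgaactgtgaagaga
Ugt2b38: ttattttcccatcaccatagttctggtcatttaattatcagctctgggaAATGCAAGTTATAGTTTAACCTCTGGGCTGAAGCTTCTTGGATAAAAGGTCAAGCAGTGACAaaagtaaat
Ugt2b36: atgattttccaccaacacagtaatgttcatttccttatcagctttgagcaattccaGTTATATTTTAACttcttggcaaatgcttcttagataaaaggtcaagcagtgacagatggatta
Ugt2b35: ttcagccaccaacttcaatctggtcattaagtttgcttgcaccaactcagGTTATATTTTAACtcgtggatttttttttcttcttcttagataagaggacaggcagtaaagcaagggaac

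The motif GTTATANTTTAAC is the longest stretch, with at most 1 differing base (N), that all 5 windows hold, so its presence in them is by construction. On both strands it stands in 6 of the 32851 windows of RefSeq genes (0.0183%), 5 of which are the windows above. Over the 250 bases before the start, Ugt2b37 and Ugt2b38 were 89.6% identical, Ugt2b5 and Ugt2b38 84.8%, and Ugt2b5 and Ugt2b37 79.6%. Ugt2b36 was 62.8% to 64.0% identical to these 3, Ugt2b35 56.8% to 60.8% and Ugt2b34 52.8% to 54.4%, so that Ugt2b35 lay nearly as far off as Ugt2b34. A match is a description of the letters, and binding of a factor was not measured.

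Genes this alike could also share signal on the array. The probes used for Ugt2b37 (chr5:87669707-87669766, mm9, minus strand) and Ugt2b5 (chr5:87554155-87554214, mm9, minus strand) had the longest run in common of any pair of transferase probes, 18 bases, shown in capitals within 30-base stretches of the 60-base probes. No other pair shared over 12 bases. Matches of a probe to transcripts other than these were not searched.
Ugt2b37 probe: tgaatgAACTTTCAGCCTCATTCTaattta
Ugt2b5 probe: gaacaAACTTTCAGCCTCATTCTtatttat

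The other glucuronide transferases had differences of mixed precision. Ugt2a1, first known from olfactory tissue, read -1.72, -1.66 and -1.86 in C3aR-/- arrays, against -2.03, -2.02 and -1.83 in WT arrays, a difference of 0.21 ± 0.11. C3aR-/- replicate 3 lay just below WT replicate 3, so the groups overlapped. Ugt2a3, whose human form conjugates bile acids, read -2.56, -2.98 and -2.78 in C3aR-/- arrays, against -3.37, -2.64 and -3.45 in WT arrays, a difference of 0.38 ± 0.24, with WT replicate 2 inside the C3aR-/- range. Ugt3a2, which in human uses UDP-glucose and UDP-xylose in place of UDP-glucuronic acid, had the largest positive difference of the class. It read 5.27, 5.74 and 5.56 in C3aR-/- arrays, against 4.36, 5.69 and 5.19 in WT arrays, a difference of 0.45 ± 0.34 that was 0.08 without WT replicate 1 and -0.03 without both end arrays. A second, dimmer probe of Ugt3a2 differed by 0.60 ± 0.37. Ugt3a1 differed by 0.39 ± 0.40 and Ugt8a, which makes the galactosylceramide of myelin and kidney membranes, by 0.16 ± 0.23.

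The Ugt1 genes use alternative first exons joined to shared later ones, so a probe near the common end reads several of them at once. Ugt1a6b read 6.61, 7.15 and 6.57 in C3aR-/- arrays, against 6.34, 6.75 and 6.71 in WT arrays, a difference of 0.18 ± 0.20. Its 3 probes gave differences of -0.03 to 0.18, and the probe used turned to -0.14 without both end arrays. That probe lies at chr1:90115493-90115552 (mm9, plus strand), near the Ugt1a6a probe at chr1:90116514-90116573. The probe at chr1:90004249-90004308 was far dimmer, with means of -3.125 in C3aR-/- and -3.091 in WT arrays, and gave the -0.03. The third, at chr1:90114900-90114959, gave 0.15. Which Ugt1 transcripts each probe read was not tested. Ugt1a10 read 0.04, 0.93 and 0.12 in C3aR-/- arrays, against 0.16, 0.75 and 0.35 in WT arrays, the only negative difference of the class at -0.06 ± 0.28. Its sign changed in 3 of 6 fits that left out an array. Ugt1a6a differed by 0.06 ± 0.33. All 3 were highest on C3aR-/- replicate 2.

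Among the sulfate transferases, 8 read higher and 4 lower, with a median difference of 0.06, and 7 of the 19 listed genes were below the filter. Sult4a1, a sulfotransferase of brain with no settled substrate, had the largest difference of all transferases. It read -1.79, -2.24 and -1.33 in C3aR-/- arrays, against -0.65, -1.67 and -1.30 in WT arrays, a difference of -0.58 ± 0.33 (limma, unadjusted p = 0.120). WT replicate 1 stood above the rest, and the other 2 WT arrays lay within or next to the C3aR-/- range. Leaving out C3aR-/- replicate 2 gave -0.35, leaving out WT replicate 1 gave -0.31, and leaving out both gave -0.08. Sult2b1, which sulfates cholesterol and pregnenolone, read -1.89, -2.54 and -1.64 in C3aR-/- arrays, against -1.15, -1.97 and -1.56 in WT arrays. Its difference was -0.46 ± 0.29, and WT replicate 1 was again the highest array. It was -0.21 with C3aR-/- replicate 2 left out, -0.26 with WT replicate 1 left out and -0.003 with neither in the fit.

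Sult1d1, which sulfates catecholamines in mouse, read 3.98, 3.94 and 4.02 in C3aR-/- arrays, against 3.73, 3.97 and 3.56 in WT arrays, a difference of 0.23 ± 0.13 (limma, unadjusted p = 0.121). The C3aR-/- arrays lay close together (SD 0.04), with WT replicate 2 among them. Sult1c2 read 4.56, 4.56 and 4.59 in C3aR-/- arrays, against 4.43, 4.65 and 4.39 in WT arrays, a difference of 0.08 ± 0.11. Sult1a1, the general phenol sulfotransferase, differed by 0.19 ± 0.20. Sult1b1, which acts on thyroid hormones, differed by 0.03 ± 0.12, Sult1c1 by -0.07 ± 0.23 and Sult5a1 by 0.02 ± 0.18. A second, dimmer probe of Sult1b1 differed by 0.37 ± 0.15 (limma over all probes, unadjusted p = 0.0460, adjusted p = 0.947) and is singled out after its values were seen.

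Sult2a enzymes sulfate bile acids and hydroxysteroids. Sult2a6 read -4.06, -4.73 and -4.30 in C3aR-/- arrays, against -4.58, -5.09 and -4.49 in WT arrays, a difference of 0.36 ± 0.23. The levels of both replicates numbered 2 were low. The Sult2a6 probe used was well above background on 3 C3aR-/- and 2 WT arrays, and the gene's other probes on none. Sult2a2, Sult2a3 and Sult2a6 were among the dimmest of the tested transferases. Sult2a3 differed by 0.35 ± 0.23, Sult2a2 by 0.29 ± 0.34 and Sult2a8 by -0.11 ± 0.10. Sult2a1, Sult2a4, Sult2a5, Sult2a7, Sult3a1 and Sult6b1 were not well above background on any array, and Sult1e1, the estrogen sulfotransferase, was above it on 1 WT array.

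Regulators of these genes gave no common direction. Nfe2l2 encodes NRF2, which binds the antioxidant response element, and of 19 tested regulators and classical targets 11 read higher and 8 lower, with a median of 0.06. Cyp1a1, a target of the aryl hydrocarbon receptor, differed by 0.42 ± 0.14 (limma, unadjusted p = 0.024, adjusted p = 0.931), the only one of the 19 at an unadjusted p under 0.05, a share near the 4.89% of all genes. It read -2.68, -2.80 and -2.63 in C3aR-/- arrays, against -2.86, -3.30 and -3.20 in WT arrays, with no overlap. Hmox1, heme oxygenase, read -0.32, 3.68 and 2.88 in C3aR-/- arrays, against 3.72, 4.01 and 3.82 in WT arrays. Its difference was -1.77 ± 0.97, and C3aR-/- replicate 1 stood far below the other arrays.

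The core of the antioxidant response element, TGACNNNGC on either strand, stood in the 250 bases before the start of 4 of the 49 transferase genes with a promoter window, or 8.16%, against 10.2% of all windows. They were Gsta3, Gstm5, Gstm7 and Mgst1, whose differences were 0.34, 0.01, -0.03 and 0.11. The transferase share counts genes and the other share counts windows, so the units differ. The matches in Gsta3 (chr1:21240443-21240492, plus strand) and Gstm5 (chr3:107895791-107895840, plus strand), both on GRCm38.p6, are shown in capitals. These 2 genes carry the element and had unlike estimates, 0.34 ± 0.20 and 0.01 ± 0.09. Whether the 2 genes differ from each other was not tested.
Gsta3: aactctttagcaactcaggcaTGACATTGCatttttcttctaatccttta
Gstm5: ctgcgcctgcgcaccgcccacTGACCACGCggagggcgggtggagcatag

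The core of the xenobiotic response element, GCGTG, stood in 9 of the 49 genes, or 18.4%, against 28.2% of all windows. They were Gsta2, Gstm1, Gstm5, Gstp1, Mgst3, Sult1b1, Sult1d1, Sult2b1 and Ugt8a, of which 6 read higher and 3 lower. These shares, too, set genes against windows.

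Genes that supply or carry off the substrates had differences of the same small size. Of 10 tested genes of glutathione supply and mercapturate formation, 8 read higher, with a median of 0.17 and 0 at an unadjusted p under 0.05 (limma). Gsr, glutathione reductase, differed by 0.23 ± 0.17 and Dpep1, the brush border dipeptidase that trims the conjugate, by 0.56 ± 0.44. Gclc and Gclm, the subunits of the enzyme that starts glutathione synthesis, differed by -0.05 ± 0.10 and -0.07 ± 0.10. Of 4 genes of UDP-glucuronate supply and removal 3 read higher, with a median of 0.10 and 0 at that p, and Slc35d1, which carries UDP-glucuronate into the endoplasmic reticulum, differed by 0.36 ± 0.24 and Ugp2, which makes UDP-glucose, by 0.16 ± 0.12.

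Of 9 genes of sulfate supply and removal 7 read higher, with a median of 0.08. Papss1, which makes the sulfate donor PAPS, differed by 0.30 ± 0.11 with no overlap (limma, unadjusted p = 0.031, adjusted p = 0.931), and Bpnt1, which clears the spent donor, differed by 0.28 ± 0.15. Papss1 was the only one of these 9 at an unadjusted p under 0.05, against 4.89% of all genes. Of 6 efflux pumps 4 read higher, with a median of 0.15 and 0 at that p. Abcc2, the apical pump for glutathione and glucuronide conjugates, differed by 0.32 ± 0.17 and Abcc3, a basolateral pump, by -0.42 ± 0.18. Of 10 other conjugating enzymes and epoxide hydrolases 7 read higher, with a median of 0.18 and 0 at that p. Hnmt, which methylates histamine, differed by 0.18 ± 0.12 and Ephx2, soluble epoxide hydrolase, by 0.35 ± 0.25.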

How the data were processed

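Arrays were read with Agilent Feature Extraction 10.7.1.1, per the submitters' processing notes, on a grid built on mm9, per the file headers. The deposited intensity used was the processed signal, which the authors' software had background-subtracted; flags for outliers and spots well above background came with it. The authors' deposited table of log2 values served as an alternative, and how the authors normalized it is not given in the sources used.

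Control and outlier spots were left out (6 probes), and no probe was saturated. Values were log2 signals minus the array's 75th percentile; 34778 probes passed the filter of at least 3 arrays above background, and the probe with the highest mean stood for each of 22741 genes. Differences were fitted over the whole table with limma 3.58.1 (lmFit, eBayes; R 4.3.3), p-values were adjusted by Benjamini-Hochberg, after a test on simulated data. RefSeq symbols matched 74 of 84 transferase probes, with no name changed; 3 probes with older names belong to Gstp3, Sult3a2 and Sult6b2 in RefSeq and stayed outside the rule. Promoter windows are RefSeq's, 49 of 57 genes matched, and searches used Biopython 1.88.

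The members and lists were chosen with earlier results of these data known. Values by array were given for the 3 genes of smallest p in each class, the largest positive and negative difference of each, and the brightest probe of each, and every other member is named; Ugt2b5 and Ugt2b38 were added after their values were seen. For the pathway lists and 7 of the 16 cell type lists the 2 genes of smallest p were named, except for values not reported here; Gclc, Gclm and the markers named without a value or for their array order were chosen after values were seen. Other list members are only counted. Slide (1) and scan (1) were common to all arrays and could not be blocks. Alternatives were the normalizations, filters, probe rules, variance models and blocks given with the closing limits.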

Additional observations from a re-analysis of the deposited data

How the results depend on the processing

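No transferase passed an adjusted p under 0.05 (limma) in any of the 19 alternatives. The 17 named transferases kept their sign in 309 of 322 values, with a lowest adjusted p of 0.452. The other background filters, every probe on its own, trend and robust variances, and both blocks left the named estimates unchanged. Signs in those settings were fixed in advance, so the count overstates how steady the directions were. The count at an unadjusted p under 0.05 was 0 in the main fit, against 4.89% of all genes. It was 1 with normexp (Sult2a3, against 4.46%) and 1 with the mean of a gene's probes (Mgst3, against 5.08%). With every probe on its own it was 2, against 4.68% of all probes. With array weights it was 3 (Sult2a3, Sult2a6 and Ugt2b34, against 9.3% of all genes). With the slide row as a block it was 3 (Gsta3, Gstm4 and Sult4a1, against 7.66%). Without the 2 arrays that end the first component it was 4 (Sult2a3, Ugt1a10, Ugt1a6a and Ugt2b34, against 8.9%). Without 1 array it was 0 to 3 (against 3.37% to 6.7%). The count without overlap was 1 in the main fit, against 9.85% of all genes. It was 2 with quantile normalization (10.3%), 2 with median scaling (8.79%), 2 in the authors' table (10.3%) and 4 with normexp (10.3%). It was 3 with the mean of probes (10.4%) and 3 with every probe (9.58% of all probes). It was 15 without both end arrays and 2 to 16 without 1 array. Fewer arrays make separation easier by construction: 41.6% of all genes had no overlap without both end arrays, and 14.9% to 23.1% without 1 array.

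The median over the transferases was 0.12, and it was -0.0025 with array weights, -0.017 without both end arrays, and 0.039 (without WT replicate 1) to 0.197 (without C3aR-/- replicate 3) without 1 array. The glucuronide median was -0.14 without both end arrays and 0.06 to 0.49 without 1 array, and with array weights it was -0.042 and 5 of 14 genes read higher. Differences without 1 array ran from 0.16 to 0.47 for Gsta3, -0.60 to -0.18 for Mgst2, -0.81 to -0.31 for Sult4a1, -0.67 to -0.21 for Sult2b1, 0.17 to 0.54 for Sult2a6, 0.20 to 0.53 for Ugt2b34, 0.23 to 0.64 for Ugt2a3 and 0.13 to 0.33 for Sult1d1. The glutathione median ran from -0.010 (without WT replicate 1) to 0.077 (without WT replicate 3). Signs turned for Gstz1 (-0.14 without both end arrays, -0.012 to 0.61 without 1 array), Gsta2 (-0.019 with array weights, -0.17 without both, -0.027 to 0.26 without 1 array), Ugt3a2 (-0.025 without both), Ugt1a6b (-0.041 with array weights, -0.14 without both, -0.011 to 0.28 without 1 array) and Ugt1a10 (-0.34 to 0.11 without 1 array). C3ar1 read lower in each setting that tested it, and was -0.39 with normexp and -0.65 without both end arrays. The cause of these moves was not tested.

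With the replicate number as a block the count at an unadjusted p under 0.05 was 5 (Mgst2, Sult2a3, Sult2a6, Sult2b1 and Ugt2b34), against 7.02% of all genes. The block lowered the standard error for some genes, such as C3ar1 (0.30 to 0.10) and Mgst2 (0.26 to 0.11). It raised it for others, such as Gsta3 (0.196 to 0.212). Deviations of same-numbered samples correlated at 0.13, 0.41 and -0.09. Samples of unlike number were not compared, so these values cannot decide whether the numbers pair the samples. The main fit assumed no pairing. The number of arrays limits the precision.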
